A study of Mus musculus and Homo sapiens with 12 samples.

Results

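The genes described here are 41 mouse genes of DNA replication and mitosis, taken by name from a list among the 54331 genes of the EMT6 expression table. The list holds 19 genes that act in DNA replication or at the entry into S phase, 20 genes that act in mitosis, and the D-type cyclins Ccnd1 and Ccnd2. The study asked which transcripts differ once PFKFB4 is deleted from breast cancer cells. PFKFB4 is a kinase and phosphatase that sets how much of the sugar phosphate that activates phosphofructokinase a cell holds. EMT6, a mouse mammary carcinoma line, was sequenced as 3 wild-type libraries and 3 knockout libraries. The labels name no treatment, and all cells grew in high-glucose medium with serum. The labels state neither the edited exon nor whether the knockout is a single clone, and the knockout columns carry a code that no label explains. The libraries are called biological replicates without mention of separate cultures, so the p-values below measure the spread between these libraries. MDA-MB-231, the human line of the study, was not analysed here, because no source used here pairs its identifiers with gene names.

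Before S phase, the origin recognition complex, Cdc6 and Cdt1 load the MCM helicase onto DNA, and Cdc45 and the GINS complex then switch the helicase on. The E2F factors, held back by the retinoblastoma protein until cyclin D and cyclin E kinases act, drive many replication genes early in the cycle. Mitotic genes are transcribed later, in G2 and M, under the MuvB complex with B-MYB and FOXM1, and their products build the spindle, hold the checkpoint until chromosomes are attached and trigger anaphase. In bulk RNA, fewer cells in a cycle phase and less RNA per cell in that phase cannot be told apart.

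Values are TPM, reads per length of transcript scaled to the same total in each library, so levels can be set side by side between genes. TPM keeps no read number, and the depth behind each value is unknown. The targeted transcript, Pfkfb4, was at 10.2, 10.5 and 10.4 TPM in wild-type libraries and at 6.96, 6.87 and 8.24 TPM in the knockout ones. Knockout minus wild type came to -0.45 ± 0.0795 (SE, limma adjusted p = 0.00487) on the log2(TPM + 1) scale, -0.23 (adjusted p = 0.0632) under median-ratio scaling and -0.18 (adjusted p = 0.134) after exon length detrending, so the call was lost in both. Such a value, summed over the gene, is no test of the edit. Genes at 1 TPM or more numbered from 12350 to 12426 per wild-type library and from 11871 to 12015 per knockout library. Of 7 epithelial markers, Krt8 was abundant (482 and 535 TPM in wild-type cells and knockout), whereas Epcam (0.231 and 0.21 TPM) and Cdh1 (0.00715 and 0.00228 TPM) were close to 0. The other tested keratins, Krt14 (36.5 to 3.94 TPM), Krt18 (36.3 to 15.5 TPM) and Krt19 (1.95 to 0.0177 TPM), were called lower in all 3 scalings described below. Krt8 was called higher in the same 3 scalings (0.15 in TPM, limma adjusted p = 0.0302). Of 5 mesenchymal markers, Vim was called higher (2711 to 3292 TPM) and 4 were called lower in TPM. The lower ones were Col1a1 (200.1 to 52.4 TPM), Col1a2 (303 to 171 TPM), Pdgfra (4.83 to 2.18 TPM) and Pdgfrb (1.24 to 0.927 TPM), the last with a sign that turned after length detrending (0.0818, adjusted p = 0.272). Of 8 leukocyte markers, Ptprc, Cd3e and Itgam were at or near 0 in every library, while Coro1a (2.17 to 5.14 TPM) and Cd68 (23.9 to 56.1 TPM) were called higher. Cd14, also tested, was not called in TPM (25.3 and 23.7 TPM, limma adjusted p = 0.158). Its sign differed between median-ratio scaling (0.14) and length detrending (-0.15). The summed level of the leukocyte list was 49.95 to 54.1 TPM in wild-type cells and 83.2 to 87.7 TPM in knockout cells, and its part in the results below was not tested. The 4 endothelial markers summed to at most 0.0837 TPM. The epithelial list summed to 530.2 to 584 TPM and then 542 to 568 TPM, most of it Krt8, and the 5 mesenchymal markers, most of it Vim, to 3125 to 3341 TPM and then 3449 to 3575 TPM.

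In TPM, most mitotic genes were lower in the knockout cells, while the replication genes went both ways. Of the 20 mitotic genes, 13 fell and 2 rose in TPM, with a median log2 fold change of -0.36. Of the 19 replication genes, 8 rose and 7 fell, with a median of 0.11. Over all 13499 tested genes, limma called 14.5% higher and 42.3% lower at an adjusted p under 0.05, and the median was -0.21. The 7 lower replication genes are thus near the share of all genes that were lower, whereas the 8 higher ones and the 13 lower mitotic genes exceed theirs. Among all 40 tested members, 35 had no overlap between the groups, 13 with every knockout library above and 22 with every knockout library below. Over all tested genes, 17.9% lay wholly above and 48.3% wholly below. Ccnd2 was listed at 0 in all 6 libraries and was not tested.

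The balance of calls moved with the scaling between libraries, and each direction below is therefore given under 3 scalings. Median-ratio scaling divides a library by the median, over genes, of its ratio to their geometric means, and it raised the median of all genes by 0.19 on the log2 scale. Under it, 26.6% of all genes were called higher and 25.4% lower. The replication genes then stood at 10 higher and 3 lower (median 0.35), and the mitotic genes at 3 higher and 7 lower (median -0.13). Length detrending, which subtracts from each library its trend on exon length, raised the median of all genes by 0.16 and gave 23.2% higher and 26.6% lower. The replication genes then stood at 10 higher and 2 lower (median 0.15), and the mitotic genes at 4 higher and 7 lower (median -0.12). The replication median was above the mitotic median under each of the 3 scalings, by 0.47 in TPM and by 0.27 at the least.

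Calls that held in all 3 scalings were made for 12.2% of genes in the higher direction and 19.5% in the lower direction. By this rule, chosen after the data were seen, 11 members were higher: Mcm3, Mcm5, Mcm6, Cdt1, Cdc45, Gins2, Rfc4, E2f1, Ccnd1, Ccnb2 and Cdc20. The 8 lower members were Ccne2, Chek1, Ccnb1, Aurkb, Bub1, Bub1b, Kif11 and Mki67. Of these, 2 are replication genes and 6 are mitotic. Among the 40 tested members, 8 lower is near the share of all genes, whereas 11 higher exceeds it. All 8 lower calls also held with each library left out and under the other filters, pseudocount and variance settings. In the higher direction, 6 calls held that widely: Mcm3, Gins2, Rfc4, E2f1, Ccnb2 and Cdc20. In TPM, 4 replication genes were called higher on omission of wild-type replicate 2 or of either of knockout replicates 2 and 3, and 5 on omission of wild-type replicate 1. With knockout replicate 1 left out, 4 replication genes were called lower.

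**Figure D1:**
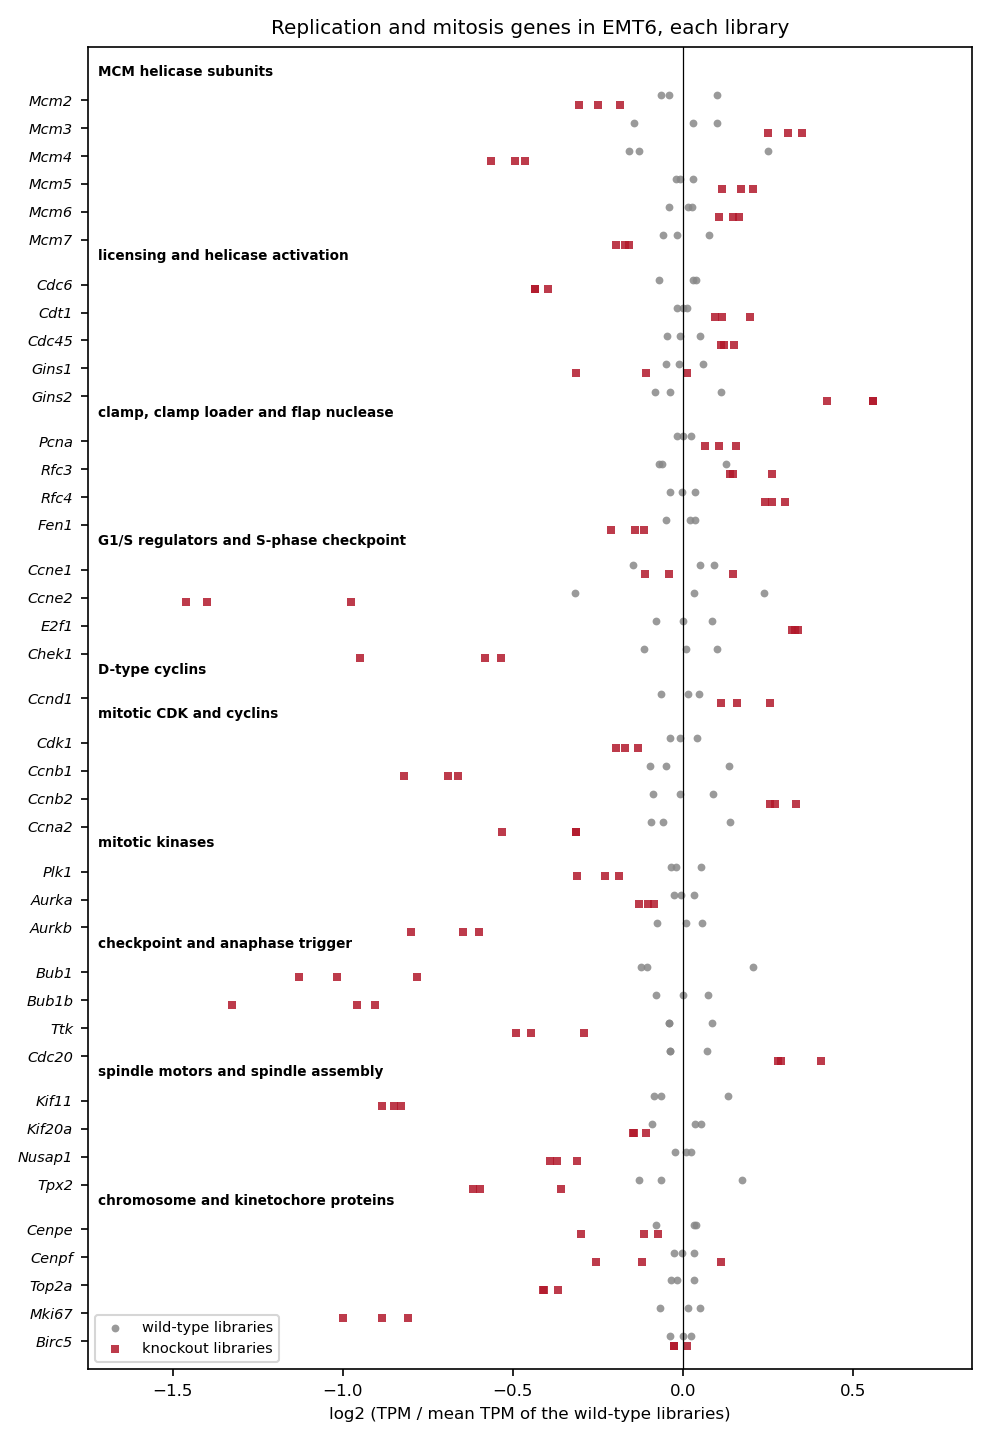
Level of each tested gene in each EMT6 library, as the log2 ratio of its TPM to the mean of the 3 wild-type libraries (grey circles, wild type; red squares, knockout), ordered by role. The red squares lie to the left for Ccne2, Chek1, Ccnb1, Aurkb, Bub1, Bub1b, Kif11 and Mki67, and to the right for Mcm3, Gins2, E2f1, Ccnb2 and Cdc20.

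**Figure D2:**
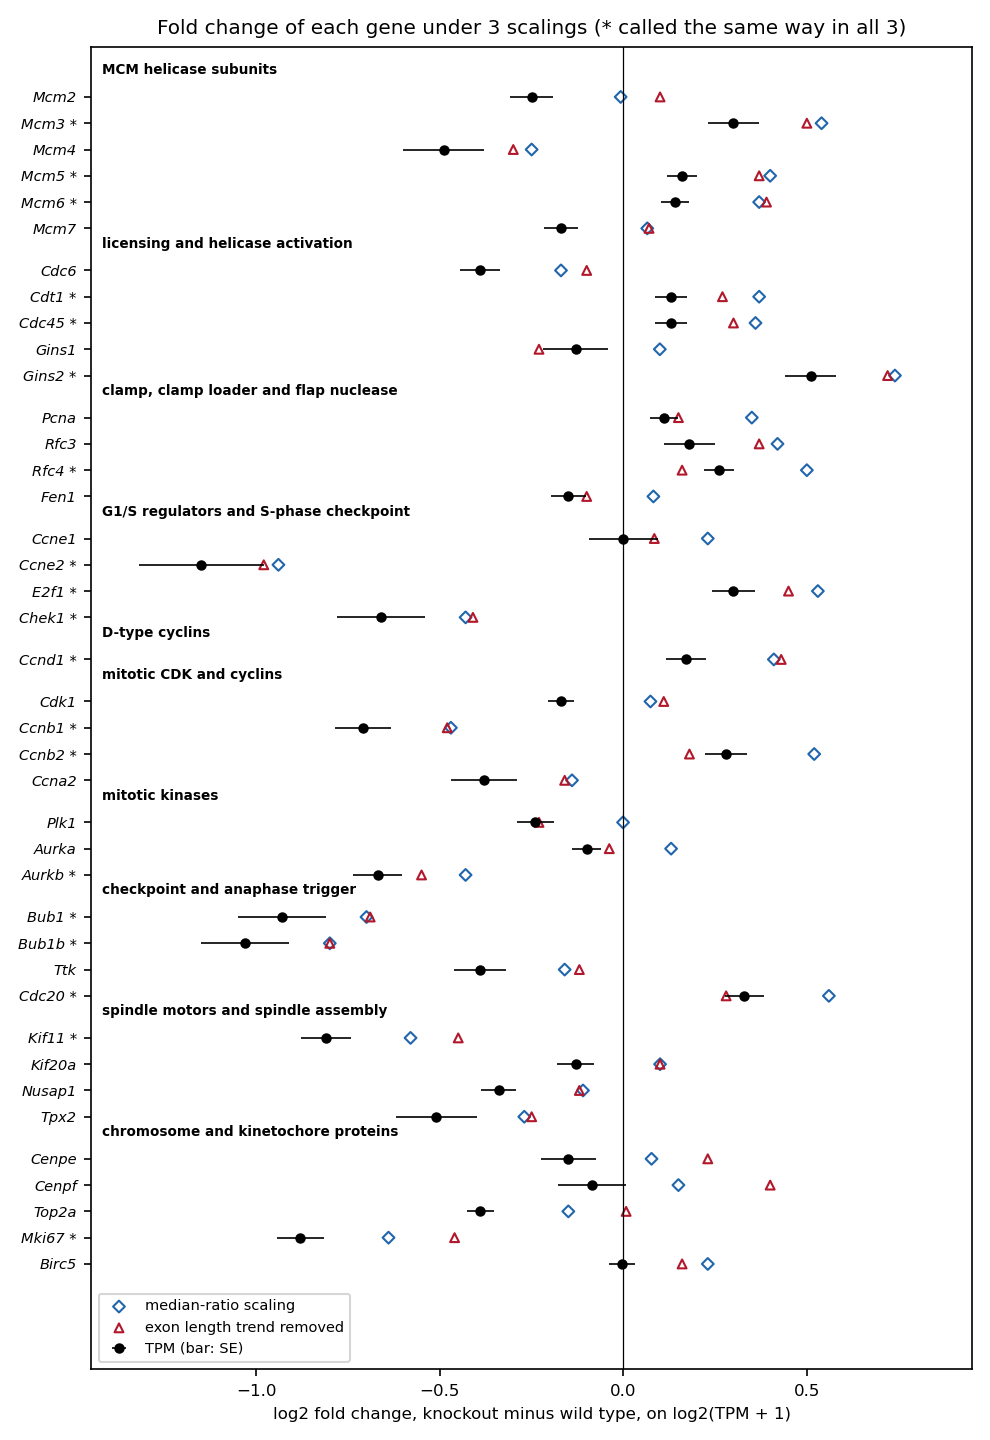
Log2 fold change of each tested gene, knockout minus wild type, in TPM (black circles, bars are SE, 3 libraries a group), under median-ratio scaling (blue diamonds) and after exon length detrending (red triangles). Stars mark the 19 genes called in the same direction under all 3, and both rescalings sit to the right of the TPM value for most genes.

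Promoter sequences are shown for 5 genes, since members with the same promoter elements did not all move the same way. The RefSeq table for GRCm38.p6 held a window for 31 of the 41 genes, 33 windows in all, and the 250 bases before each start were searched on both strands. The E2F element was searched as TTTCCCGC, TTTCGCGC, TTTGCCGC and TTTGGCGC. The cell cycle homology region (CHR), the element that MuvB binds, was searched as TTTGAA and TTCGAA, and the CCAAT box, bound by NF-Y, as CCAAT. On the other strand these read, for example, TTCAAA and ATTGG. The first sequence below is from Mcm6, which was called higher in TPM, and its capitals mark E2F elements, including a run in which TTTGGCGC and a reverse-strand TTTCGCGC overlap. The capitals of the other 4 mark CHR elements and CCAAT boxes. Ccnb2 and Cdc20 rose, and Kif11 and Mki67 fell.
Mcm6 (chr1:128359706-128359905, minus strand): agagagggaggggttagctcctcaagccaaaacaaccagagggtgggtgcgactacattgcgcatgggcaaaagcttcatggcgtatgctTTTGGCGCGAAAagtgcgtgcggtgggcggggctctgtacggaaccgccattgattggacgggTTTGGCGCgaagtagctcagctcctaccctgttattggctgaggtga
Ccnb2 (chr9:70421555-70421754, minus strand): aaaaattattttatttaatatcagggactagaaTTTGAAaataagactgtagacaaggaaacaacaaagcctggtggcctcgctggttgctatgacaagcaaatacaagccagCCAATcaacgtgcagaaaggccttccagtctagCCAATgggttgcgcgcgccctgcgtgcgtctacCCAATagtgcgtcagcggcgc
Cdc20 (chr4:118437344-118437543, minus strand): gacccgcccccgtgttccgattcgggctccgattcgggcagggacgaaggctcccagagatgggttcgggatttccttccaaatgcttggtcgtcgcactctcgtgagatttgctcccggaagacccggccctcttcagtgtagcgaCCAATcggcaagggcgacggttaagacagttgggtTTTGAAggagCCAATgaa
Kif11 (chr19:37376182-37376381, plus strand): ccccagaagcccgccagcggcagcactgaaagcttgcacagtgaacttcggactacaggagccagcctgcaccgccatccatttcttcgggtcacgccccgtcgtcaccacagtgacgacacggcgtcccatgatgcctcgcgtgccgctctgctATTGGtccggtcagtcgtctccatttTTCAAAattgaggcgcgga
Mki67 (chr7:135716380-135716579, minus strand): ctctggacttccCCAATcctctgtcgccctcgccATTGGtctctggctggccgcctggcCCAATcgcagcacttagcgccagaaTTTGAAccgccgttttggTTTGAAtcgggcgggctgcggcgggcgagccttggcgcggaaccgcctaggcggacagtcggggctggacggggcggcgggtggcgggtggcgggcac
The E2F element was found in 5 of 17 replication windows (29.4%), in 1 of 16 mitotic windows (6.25%) and in 1.86% of all 32851 windows of the table. A CHR and a CCAAT box together were found in 7 of 16 mitotic windows (43.8%), in 4 of 17 replication windows (23.5%) and in 6.02% of all windows. The CCAAT box alone was found in 14 of 16 mitotic windows and in 33.8% of all windows. The mitotic windows with both elements included those of Ccnb2 and Cdc20, which rose, and 5 of the 10 whose genes fell in TPM. None of the 4 mitotic windows whose genes were not called held a CHR. A CHR was in 17.1% of all windows, so 4 windows are too few to set these genes apart. Only the letters listed above were searched, so an element spelled otherwise would be missed. Among the replication windows, the E2F element was in 2 of the 7 windows of genes that rose and 2 of the 7 windows of genes that fell. Fen1 and Mcm7 gave 2 windows each to the genes that fell, and Ccne2 and Mcm4 gave none. The starts of 7 windows lie over 100 bases inside the gene model, so these windows may miss the main promoter. All 7 are replication windows: those of Cdc6, Chek1, E2f1 and Pcna, 1 of Fen1 and both of Mcm7. The E2F matches among genes that fell, in Cdc6 and Mcm7, both lie in such windows. The shares are therefore not like for like between the sides, or between replication genes that rose and fell. A match describes letters in a window and not a bound site.

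The MCM genes, which encode the 6 subunits of the replicative helicase ring, split evenly in TPM, 3 higher and 3 lower. Mcm3 (ENSMUSG00000041859, chromosome 1, 20802968 to 20820312 on GRCm38) had 73.2, 82.5 and 86.6 TPM in wild-type cells and 103.0, 96.1 and 100.2 TPM in knockout cells. It rose by 0.30 ± 0.0704 (SE, adjusted p = 0.0125) on the log2(TPM + 1) scale, by 0.54 under median-ratio scaling and by 0.50 after length detrending. All 3 knockout libraries lay above the wild-type range. Mcm5 (73.9 ± 1.3 to 82.8 ± 2.6 TPM, SD, n = 3) and Mcm6 (72.4 ± 1.77 to 79.7 ± 1.64 TPM) rose by 0.16 (adjusted p = 0.0161) and 0.14 (adjusted p = 0.0248). These small differences were called in all 3 scalings but were not stable to the loss of a library. The Mcm5 call was lost on omission of wild-type replicate 2 and of knockout replicates 2 and 3 (adjusted p = 0.0565, 0.0509 and 0.0534 in turn), and the Mcm6 call was lost without any library except knockout replicate 1 (adjusted p = 0.0502 to 0.0759).

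The other MCM subunits were lower in TPM only. Mcm4 had 89.6, 67.5 and 68.8 TPM in wild-type cells and 53.5, 54.6 and 50.9 TPM in knockout cells, a difference of -0.49 ± 0.11 (SE, adjusted p = 0.0135). The groups did not overlap and wild-type replicate 1 was the highest library. Its value was -0.25 (adjusted p = 0.0935) under median-ratio scaling and -0.30 (adjusted p = 0.0615) after length detrending, so it was called in neither. Mcm2 had 139.0, 124.0 and 126.0 TPM in wild-type cells against 105.0, 114.0 and 109.0 TPM in knockout cells. Its difference of -0.25 (adjusted p = 0.0143) became -0.00737 under median-ratio scaling and turned to 0.10 after length detrending, and the call was lost without knockout replicate 1 (adjusted p = 0.0501). Mcm7 had 70.5, 64.2 and 66.1 TPM against 58.4, 59.9 and 59.5 TPM. Its difference of -0.17 (adjusted p = 0.023) turned to 0.0651 and 0.0699 under the rescalings, and the call was lost without any single knockout library (adjusted p = 0.0514 to 0.0761). The subunits of the ring thus had unequal differences: the ratio of Mcm3 to Mcm4 was 0.817, 1.22 and 1.26 in wild type and 1.92, 1.76 and 1.97 in the knockout, with no overlap.

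Of the 5 genes that license origins or switch the helicase on, 3 rose, 1 fell and 1 was not called. Gins2, a GINS subunit (ENSMUSG00000031821, chromosome 8, 120578633 to 120589304), had the largest rise of the 40 tested genes in TPM. It stood at 32.0, 33.0 and 36.6 TPM in wild-type cells and at 49.9, 45.5 and 49.9 TPM in knockout cells, a difference of 0.51 ± 0.0689 (SE, adjusted p = 0.00198), 0.74 under median-ratio scaling and 0.72 after length detrending. Its exons share 2758 nt with those of Gse1 on the opposite strand, which went from 6.53 to 3.63 TPM. Gins1, another GINS subunit, was not called (23.4 ± 0.88 and 21.4 ± 2.41 TPM, adjusted p = 0.25). Its sign was negative in TPM and after length detrending but positive under median-ratio scaling (0.0993).

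Cdt1, the loading factor that geminin restrains, and Cdc45, a helicase cofactor, rose by small amounts. Cdt1 stood at 32.6, 32.3 and 31.9 TPM and then at 34.5, 37.0 and 35.0 TPM, a difference of 0.13 (adjusted p = 0.0453) that lost its call when any library was left out (adjusted p = 0.07 to 0.122). Cdc45 went from 34.4 ± 1.14 to 37.6 ± 0.559 TPM, also 0.13 (adjusted p = 0.0479), and kept its call only without wild-type replicate 3 among the 6 omissions (adjusted p = 0.0983 to 0.134 in the others). Both were called in all 3 scalings, at 0.27 or more in the rescaled values. Cdc6, the ATPase that recruits Cdt1 and the MCM ring, had 15.0, 13.9 and 14.9 TPM in wild-type cells and 10.8, 10.8 and 11.1 TPM in knockout cells. It fell by 0.39 ± 0.054 (SE, adjusted p = 0.00213) in TPM and by 0.17 (adjusted p = 0.0342) under median-ratio scaling, and was not called after length detrending (-0.10, adjusted p = 0.118). Both loading factors act in the same step, and their ratio, Cdt1 to Cdc6, was 2.21 ± 0.102 in wild type and 3.25 ± 0.138 in the knockout (SD, n = 3).

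At the fork, Rfc4, a subunit of the clamp loader, rose. It had 39.5, 38.4 and 37.5 TPM in wild-type cells and 46.2, 45.5 and 47.4 TPM in knockout cells, a difference of 0.26 ± 0.0416 (SE, adjusted p = 0.00323) that was 0.50 under median-ratio scaling and 0.16 after length detrending. Rfc3, another loader subunit, had 53.5, 53.9 and 61.3 TPM against 61.8, 62.3 and 67.4 TPM, a narrow gap between the groups that was not called (0.18, adjusted p = 0.0653). It was called higher once wild-type replicate 3 was left out (0.24, adjusted p = 0.0197) and under both rescalings (0.42 and 0.37). Pcna, the sliding clamp and the most abundant replication gene of the set, stood at 240.1, 233.0 and 236.0 TPM and at 247.0, 263.0 and 254.0 TPM. The groups did not overlap, but its difference of 0.11 missed the threshold in TPM (adjusted p = 0.0504) and was called under median-ratio scaling (0.35, adjusted p = 0.000684) and after length detrending (0.15, adjusted p = 0.0248). How reads shared with processed copies of such genes were assigned is not given in the sources used here. Fen1, the flap nuclease of Okazaki fragments, had 34.6, 36.3 and 36.7 TPM against 33.1, 30.9 and 32.5 TPM. Its difference of -0.15 (adjusted p = 0.0389) turned to 0.0818 under median-ratio scaling, was -0.10 (adjusted p = 0.0853) after length detrending, and lost its call without any library except wild-type replicate 1 (adjusted p = 0.063 to 0.108).

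The regulators of S-phase entry held the widest split. Ccne2, which encodes a cyclin E (ENSMUSG00000028212, chromosome 4, 11191351 to 11204779), had the largest fall of the 40 tested genes in TPM. It stood at 20.3, 17.6 and 13.8 TPM in wild-type cells and at 6.25, 8.74 and 6.52 TPM in knockout cells, a difference of -1.15 ± 0.17 (SE, adjusted p = 0.00268). Its fall was 0.94 under median-ratio scaling and 0.98 after length detrending, and it was the only replication gene past a change of at least 2-fold in TPM. Ccne1, the other cyclin E, had 32.9, 32.0 and 27.9 TPM against 28.6, 34.2 and 30.01 TPM, overlapping groups with the same mean of 30.9 TPM (adjusted p = 0.999). The ratio of Ccne1 to Ccne2 was therefore 1.62, 1.82 and 2.02 in wild type and 4.57, 3.92 and 4.6 in the knockout. The exons of Ccne2 share 609 nt with Ints8 on the opposite strand, which went from 32.8 to 45.3 TPM.

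E2f1, the activator of G1/S transcription, had 10.7, 11.3 and 12.0 TPM in wild-type cells and 14.2, 14.3 and 14.1 TPM in knockout cells. It rose by 0.30 ± 0.0579 (SE, adjusted p = 0.00623), and by 0.53 and 0.45 under the rescalings. Chek1, the kinase of the S-phase checkpoint, had 35.6, 30.7 and 33.4 TPM against 22.2, 22.9 and 17.2 TPM. It fell by 0.66 ± 0.12 (SE, adjusted p = 0.00529), and by 0.43 (adjusted p = 0.0214) and 0.41 (adjusted p = 0.0252) under the rescalings, while E2f1 went the other way in the same libraries. Ccnd1, the D-type cyclin of the set that was detected, stood at 65.9, 61.0 and 64.5 TPM and then at 71.3, 76.2 and 68.9 TPM. It rose by 0.17 (adjusted p = 0.0363) in TPM and by 0.41 and 0.43 under the rescalings. The TPM call was lost without wild-type replicate 2 or 3 or knockout replicate 1 or 2 (adjusted p = 0.0708 to 0.107), and 1100 nt of its exons are shared with LTO1 on the opposite strand.

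The mitotic kinase Cdk1 and its cyclins did not move as a block. Cdk1, the most abundant gene of the set, stood at 389.0 ± 10.5 TPM in wild-type cells and 347.0 ± 7.56 TPM in the knockout (SD, n = 3). Its difference of -0.17 (adjusted p = 0.0109) in TPM turned to 0.0738 and 0.11 under the rescalings, with no call in either. Ccnb1, its main mitotic cyclin, had 83.0, 72.9 and 70.6 TPM in wild-type cells and 46.8, 47.7 and 42.8 TPM in knockout cells. It fell by 0.71 ± 0.0769 (SE, adjusted p = 0.000981), and by 0.47 and 0.48 under the rescalings. Ccnb2, the second B-type cyclin, had 38.3, 40.5 and 43.3 TPM against 51.3, 48.6 and 49.1 TPM and rose by 0.28 ± 0.0571 (SE, adjusted p = 0.00757), by 0.52 under median-ratio scaling and by 0.18 after length detrending. In TPM the ratio of Ccnb2 to Ccnb1 was 0.461, 0.556 and 0.613 in wild-type cells and 1.1, 1.02 and 1.15 in knockout cells. The genes differ in exon length (1531 and 4217 nt), and their fold changes lay closer together after length detrending than in TPM, and the crossing of their levels was read in TPM and not after detrending. Ccna2, the A-type cyclin of S phase and G2, went from 92.6 ± 8.35 to 71.0 ± 5.95 TPM (-0.38, adjusted p = 0.0135) and was called in neither rescaling (-0.14 and -0.16).

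Among the mitotic kinases, Aurkb fell and Aurka was not called. Aurkb, the kinase of the chromosomal passenger complex (ENSMUSG00000020897, chromosome 11, 69045647 to 69051664), had 57.1, 53.8 and 59.0 TPM in wild-type cells and 37.4, 32.6 and 36.2 TPM in knockout cells. It fell by 0.67 ± 0.0663 (SE, adjusted p = 0.000752), and by 0.43 and 0.55 under the rescalings. Birc5, the survivin subunit of the same complex, did not follow it: 111.0, 114.0 and 116.0 TPM stood against 112.0, 112.0 and 115.0 TPM (adjusted p = 0.939). Birc5 was called higher under median-ratio scaling (0.23, adjusted p = 0.00606) and after length detrending (0.16, adjusted p = 0.0139). The ratio of Birc5 to Aurkb was 2.01 ± 0.0931 in wild type and 3.21 ± 0.22 in the knockout (SD, n = 3). Aurka, the centrosomal kinase, stood at 42.5 ± 0.927 and 39.5 ± 0.592 TPM (-0.10, adjusted p = 0.0672), and its sign turned under median-ratio scaling (0.13). Plk1, the polo kinase, fell from 52.6 ± 1.75 to 44.5 ± 1.9 TPM (-0.24, adjusted p = 0.00907), a call that was lost under median-ratio scaling (-0.000839, adjusted p = 0.991) and kept after length detrending (-0.23, adjusted p = 0.00866).

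The checkpoint genes Bub1 and Bub1b fell while Cdc20, the factor their products restrain, rose. Bub1b, which encodes the checkpoint protein BUBR1 (ENSMUSG00000040084, chromosome 2, 118598211 to 118641591), had 47.4, 44.9 and 49.9 TPM in wild-type cells and 18.9, 24.4 and 25.3 TPM in knockout cells. It fell by 1.03 ± 0.12 (SE, adjusted p = 0.00108) with -0.8 under each rescaling, and was the only mitotic gene past a change of at least 2-fold in TPM. Bub1, a checkpoint kinase at the kinetochore, went from 33.0 ± 4.41 to 16.9 ± 2.1 TPM (-0.93, adjusted p = 0.00181), with -0.70 and -0.69 under the rescalings. Ttk, the kinase MPS1 that recruits both, fell from 18 ± 0.896 to 13.5 ± 0.997 TPM in TPM only (-0.39, adjusted p = 0.00534), and its values under the rescalings were -0.16 (adjusted p = 0.0679) and -0.12 (adjusted p = 0.129). Cdc20, the activator of the anaphase-promoting complex that the checkpoint holds back (ENSMUSG00000006398, chromosome 4, 118432901 to 118437352), had 114.0, 114.0 and 123.0 TPM in wild-type cells and 155.0, 143.0 and 142.0 TPM in knockout cells. It rose by 0.33 ± 0.0544 (SE, adjusted p = 0.00389), by 0.56 under median-ratio scaling and by 0.28 after length detrending. The ratio of Cdc20 to Bub1b was 2.4, 2.53 and 2.47 in wild type and 8.18, 5.86 and 5.6 in the knockout, the highest being knockout replicate 1.

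Of the spindle genes, 3 fell and Kif20a was not called. Kif11, the bipolar kinesin that pushes the spindle poles apart (ENSMUSG00000012443, chromosome 19, 37376403 to 37421859), had 30.6, 26.7 and 26.3 TPM in wild-type cells and 15.1, 15.7 and 15.5 TPM in knockout cells. It fell by 0.81 ± 0.0691 (SE, adjusted p = 0.000475), by 0.58 under median-ratio scaling and by 0.45 after length detrending. Tpx2, which activates Aurora A on spindle microtubules (80.03 ± 9.08 to 55.8 ± 5.69 TPM, -0.51, adjusted p = 0.00828), and Nusap1, a microtubule-bundling protein (18.6 ± 0.291 to 14.5 ± 0.43 TPM, -0.34, adjusted p = 0.00225), fell in TPM and were called in neither rescaling. Their rescaled values ran from -0.27 to -0.11. Kif20a, a kinesin of the midzone, stood at 53.3 ± 2.88 and 48.6 ± 0.712 TPM (-0.13, adjusted p = 0.0709). It was called lower once wild-type replicate 2 was left out (-0.18, adjusted p = 0.0298), and its sign turned under both rescalings (0.10 in each). Its exons share 1271 nt with Cdc23 on the opposite strand, which went from 16 to 9.87 TPM.

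Among the chromosome and kinetochore proteins, Mki67, the coat protein of mitotic chromosomes known as the proliferation marker Ki-67 (ENSMUSG00000031004, chromosome 7, 135689784 to 135716361), had the smallest adjusted p of the 40 tested genes. It stood at 55.4, 52.3 and 56.7 TPM in wild-type cells and at 27.4, 31.3 and 29.7 TPM in knockout cells. It fell by 0.88 ± 0.0633 (SE, adjusted p = 0.000306), by 0.64 under median-ratio scaling and by 0.46 after length detrending. Top2a, the topoisomerase that untangles sister chromatids, fell from 173.0 ± 4.31 to 132.0 ± 2.34 TPM (-0.39, adjusted p = 0.000613) and by 0.15 (adjusted p = 0.0173) under median-ratio scaling, whereas its value after length detrending was 0.00754 (adjusted p = 0.915). Cenpe, the kinetochore kinesin, stood at 26.2 ± 1.21 and 23.5 ± 1.93 TPM (adjusted p = 0.124), with overlapping groups and a sign that turned under both rescalings (0.0767 and 0.23). Cenpf, a large kinetochore protein, had 42.5, 41.8 and 43.6 TPM against 46.0, 39.2 and 35.7 TPM (adjusted p = 0.461), so that knockout replicate 1 lay above and the other knockout libraries below the wild-type libraries. With the length trend removed it was called higher (0.40, adjusted p = 0.0309).

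Averaged over each side, the mitotic genes differed more than the replication genes. The mean log2(TPM + 1) of the 20 mitotic genes was 5.89, 5.81 and 5.87 in the wild-type libraries and 5.49, 5.51 and 5.49 in the knockout libraries. That of the 19 replication genes was 5.51, 5.46 and 5.48 and then 5.4, 5.44 and 5.41. The replication mean minus the mitotic mean was -0.38, -0.36 and -0.39 in wild type and -0.08, -0.06 and -0.07 in the knockout. The replication means of the groups nearly met, at 5.46 in wild-type replicate 2 and 5.44 in knockout replicate 2. Their difference was -0.06, whereas the median log2 fold change of these genes was 0.11. For the mitotic mean and for the replication mean minus the mitotic mean, the libraries of each group lay close together and far from those of the other group. This is a description of the chosen genes in TPM and no test was made of it. The difference between the medians of the sides, 0.47 in TPM and under median-ratio scaling, was 0.27 after length detrending.

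**Figure D3:**
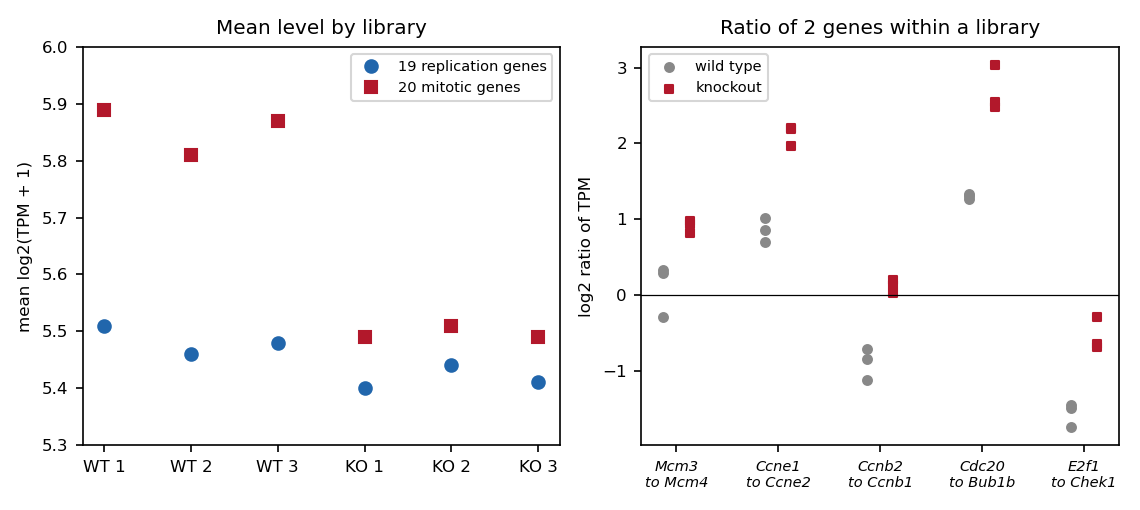
Left, mean log2(TPM + 1) of the 19 replication genes (blue circles) and the 20 mitotic genes (red squares) in each EMT6 library. Right, log2 ratio of TPM between 2 genes of a library for 5 pairs chosen after their values were seen (grey circles, wild type; red squares, knockout), with no overlap between the groups in any pair and Ccnb2 to Ccnb1 passing 0, the point of equal TPM.

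Long genes were lower in the knockout libraries across the table, and the lengths of the members are given for that reason. Among tested protein-coding genes, the median log2 fold change was 0.14 for exon lengths up to 2000 nt, -0.11 from 2000 to 4000 nt, -0.30 from 4000 to 8000 nt and -0.44 above 8000 nt. The median exon length was 3589 nt for the replication genes, 4306 nt for the mitotic genes and 3796 nt for all tested genes. In the class of 2000 to 4000 nt, the 11 replication genes had a median of 0.13 and the 4 mitotic genes a median of -0.17. In the class of 4000 to 8000 nt, the 6 replication genes had a median of -0.21 and the 10 mitotic genes a median of -0.45. The order was the other way up to 2000 nt, with 0.07 for 2 replication genes and 0.30 for 2 mitotic genes. Above 8000 nt there was no replication gene, and the 4 mitotic genes had a median of -0.27, above that of their class. Both mitotic genes that rose are short, Ccnb2 with 1531 nt and Cdc20 with 1868 nt, as is Rfc4 with 1533 nt. The falls of Ccne2 (3495 nt), Bub1 (4354 nt) and Bub1b (4275 nt) stand far below the medians of their length classes, and those of Mki67 (10061 nt) and Kif11 (7461 nt) below theirs by less. Over the 40 tested members, fold change and exon length had a Spearman rho of -0.424, given as a description since all points share the 6 libraries.

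**Figure D4:**
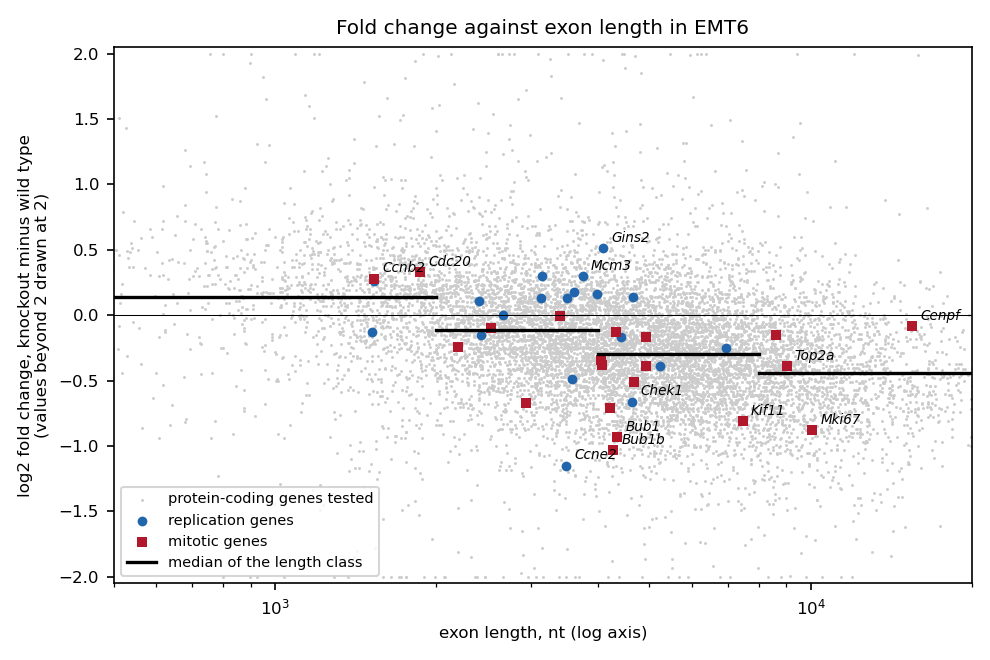
Log2 fold change in TPM, knockout minus wild type, against exon length in nt (log axis; the shortest and longest genes are not drawn) for tested protein-coding genes (grey), replication genes (blue circles) and mitotic genes (red squares); black lines are medians of 4 length classes. The class medians fall from 0.14 to -0.44 with length, and Ccne2, Bub1 and Bub1b lie well under the line of their class.

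Tested genes beside the members on the chromosome were examined too. The 20 nearest tested genes had a median log2 fold change of -0.25 around Ccne2, -0.25 around Bub1b, -0.28 around Bub1, -0.24 around Mki67 and -0.39 around Kif11, against -0.21 over all genes. Around Gins2 it was 0.15, around Mcm3 -0.14, around Ccnb2 -0.42 and around Cdc20 0.35. Cdc20 thus rose among neighbours that were also higher, and Ccnb2 among neighbours that were lower. Over the members called lower in TPM, the neighbour median ran from -0.55 around Ccnb1, Cdc6 and Top2a to 0.0533 around Ccna2. Ccnb1 itself was at -0.71, below its neighbours. Cdc6 and Top2a were each at -0.39, so they fell less than the median of their neighbours.

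The wider pathway was examined in 149 further genes in 10 lists, of which 147 were tested. Of the replication genes outside the set, 10 of 45 were higher and 21 lower in TPM, with a median of -0.19, beside 14.5% and 42.3% of all genes. Under median-ratio scaling they stood at 18 higher and 6 lower, and after length detrending at 16 and 7. Of the mitotic genes outside the set, 6 of 83 were higher and 47 lower (median -0.34), then 21 and 30 under median-ratio scaling and 21 and 23 after length detrending. In all 3 scalings, 22 of the 83 were lower and 6 higher, beside 19.5% and 12.2% of all genes. Median-ratio scaling called 26.6% of all genes higher and 25.4% lower, and length detrending 23.2% and 26.6%. The mitotic counts after length detrending are near those shares in both directions.

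Among origin and fork proteins, 3 of 19 were higher and 10 lower. The remaining GINS subunits, Gins4 (25.4 ± 1.04 to 31.3 ± 0.935 TPM, 0.29, adjusted p = 0.00438) and Gins3 (5.44 ± 0.0944 to 6.37 ± 0.379 TPM, 0.19, adjusted p = 0.0444), rose with Gins2 and in all 3 scalings, although Gins3 lost its call without any single library (adjusted p = 0.0585 to 0.126). Orc3, an origin recognition subunit, fell in all 3 scalings (14.8 ± 1.54 to 9.76 ± 0.16 TPM, -0.55 in TPM). Ticrr, the firing factor treslin, fell from 5.78 ± 0.466 to 3.64 ± 0.162 TPM (-0.55), a call that was lost after length detrending. Among polymerase and Okazaki genes, 4 of 18 were higher and 9 lower. Rnaseh2a, which removes RNA primers, rose from 84.1 ± 6.91 to 132.0 ± 11.1 TPM (0.64, adjusted p = 0.00181), and Rpa2, a subunit that coats single-stranded DNA, from 23.3 ± 0.743 to 29.1 ± 0.646 TPM (0.31, adjusted p = 0.00264), both in all 3 scalings. Pola2 and Prim2, subunits of the priming polymerase, fell in TPM (-0.61 and -0.24), and after length detrending Pola2 was not called and Prim2 was at 0.0702, while median-ratio scaling kept the call for Pola2 alone. Of 8 genes of deoxynucleotide supply, 3 were higher and 2 lower. Dctpp1, which hydrolyses dCTP, rose from 29.2 ± 1.98 to 38.7 ± 2.18 TPM (0.40, adjusted p = 0.00466) but was not called after length detrending (0.12, adjusted p = 0.0716). Rrm2, the small subunit of ribonucleotide reductase (131.0 ± 6.03 to 109.0 ± 4.7 TPM, -0.26), and Dck, which salvages deoxycytidine (-0.33), fell in TPM, and neither was called under median-ratio scaling. After length detrending Rrm2 was called lower (-0.16, adjusted p = 0.0427) and Dck was not called (-0.13, adjusted p = 0.275).

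Among 14 further G1/S regulators, 1 was higher and 8 were lower. Cdk4, the partner of cyclin D, rose from 706.0 ± 34.1 to 859.0 ± 25.3 TPM (0.28, adjusted p = 0.00403) and in all 3 scalings. Skp2, the ubiquitin ligase subunit that targets p27, fell in all 3 (6.83 ± 0.483 to 4.14 ± 0.193 TPM, -0.61), and Cdc25a, the phosphatase that activates Cdk2, fell from 12.0 ± 0.409 to 8.43 ± 0.0852 TPM (-0.47) but was not called after length detrending. Of 5 tested CDK inhibitors, 2 rose and 2 fell in TPM. Cdkn2c, which encodes p18 (90.3, 87.1 and 91.5 TPM against 141.0, 123.0 and 122.0 TPM), and Cdkn2a (3.17 ± 0.534 to 4.77 ± 0.06 TPM) rose by 0.51 and 0.47 and in all 3 scalings. Cdkn1a, the p21 gene, had 28.6, 29.4 and 33.0 TPM against 17.2, 17.4 and 18.5 TPM and fell by 0.74 (adjusted p = 0.000594) and in all 3 scalings. The 20 tested genes nearest to Cdkn1a had a median log2 fold change of -0.62, with 18 of them below 0. Cdkn1b, the p27 gene, fell by 0.36 (adjusted p = 0.0187) in TPM only, and without wild-type replicate 2 or knockout replicate 2 or 3 it was not called.

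The list of mitotic entry and its transcription factors had the largest share of lower genes of the 10 lists. In TPM 10 of 13 were lower and 0 higher, and under the rescalings 9 and 7 were lower with 0 higher. The cohesin, condensin and separase list was close to it in TPM, with 12 of 16 lower, beside 42.3% of all genes. Limma called no member of the mitotic entry list higher in any of the 3 scalings. No member had a positive fold change in TPM, and 2 had one under each rescaling. Ccnf, an F-box cyclin, went from 27.1 ± 1.38 to 10.7 ± 0.244 TPM (-1.26 ± 0.0562, SE, adjusted p = 8.2e-05), and Bora, the activator of Aurora A, from 8.83 ± 0.604 to 4.34 ± 0.257 TPM (-0.88, adjusted p = 0.000475). Both fell in all 3 scalings. The 20 nearest tested genes had a median log2 fold change of -0.79 around Ccnf, with 19 of them below 0. Around Bora that median was -0.25, with 15 of 20 below 0. Foxm1, the late cell cycle factor named above, fell from 34.5 to 21.8 TPM (-0.64, adjusted p = 0.00131) and in all 3 scalings. Mybl2, the B-MYB gene (26.2 ± 2.17 to 18.7 ± 2.99 TPM), fell in TPM (-0.47, adjusted p = 0.018) but was called in neither rescaling (adjusted p = 0.138 and 0.175). Of the MuvB subunits in the list, Lin54 fell in TPM (-0.45, adjusted p = 0.00602) and lost its call after length detrending (adjusted p = 0.147), and Lin9 was not called (-0.39, adjusted p = 0.0582). These 4 were singled out after their values were seen. Among further kinetochore and checkpoint genes, 7 of 16 were lower and 0 higher by limma in TPM (0 higher also at an unadjusted p under 0.05). That lower count is near the 42.3% of all genes. Under median-ratio scaling 5 were higher and 2 lower, and after length detrending 4 were higher and 3 lower. Knl1, the scaffold that holds Bub1 at the kinetochore, fell from 8.06 ± 1.6 to 2.73 ± 0.246 TPM (-1.27 ± 0.14, SE, adjusted p = 0.00097), and Sgo2a, a shugoshin that guards cohesin, from 10.2 ± 0.832 to 6.37 ± 0.289 TPM (-0.61), both in all 3 scalings.

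Among spindle, midzone and cytokinesis genes, 13 of 21 were lower and 1 was higher. Kif15, a kinesin that can stand in for Kif11, fell by 0.67 (20.02 ± 0.329 to 12.2 ± 0.437 TPM) and Prc1, the midzone bundler, by 0.66 (90.9 ± 4.16 to 57.2 ± 2.52 TPM), while Ckap2, a spindle protein, rose by 0.23 (31.0 ± 0.591 to 36.6 ± 0.794 TPM). All 3 calls held in the 3 scalings. Among cohesin, condensin and separase genes, 12 of 16 were lower and 1 was higher. Pttg1, the securin that Cdc20 marks for destruction, rose with Cdc20, from 84.4, 93.1 and 94.9 TPM to 145.0, 137.0 and 142.0 TPM (0.64, adjusted p = 0.000507), and in all 3 scalings. Espl1, the separase that securin inhibits, fell from 84.9 ± 6.53 to 57.8 ± 3.63 TPM (-0.55) but was not called after length detrending (-0.16, adjusted p = 0.24), and Ncapg2, a condensin II subunit, fell in all 3 (30.8 ± 6.41 to 13.3 ± 1.06 TPM, -1.14). In the anaphase-promoting complex, 4 of 17 were higher and 5 lower in TPM, and 9 were higher and 2 lower under median-ratio scaling. Its small subunits Anapc13 (71.7 ± 5.46 to 100 ± 7.57 TPM) and Anapc11 (55.6 ± 2.68 to 68.7 ± 5.13 TPM) rose in all 3 scalings, while Cdc27 (14.9 ± 1.63 to 8.06 ± 0.074 TPM) fell in all 3 and Cdc23 (16 ± 1.05 to 9.87 ± 0.893 TPM) fell in TPM and under median-ratio scaling.

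**Figure D5:**
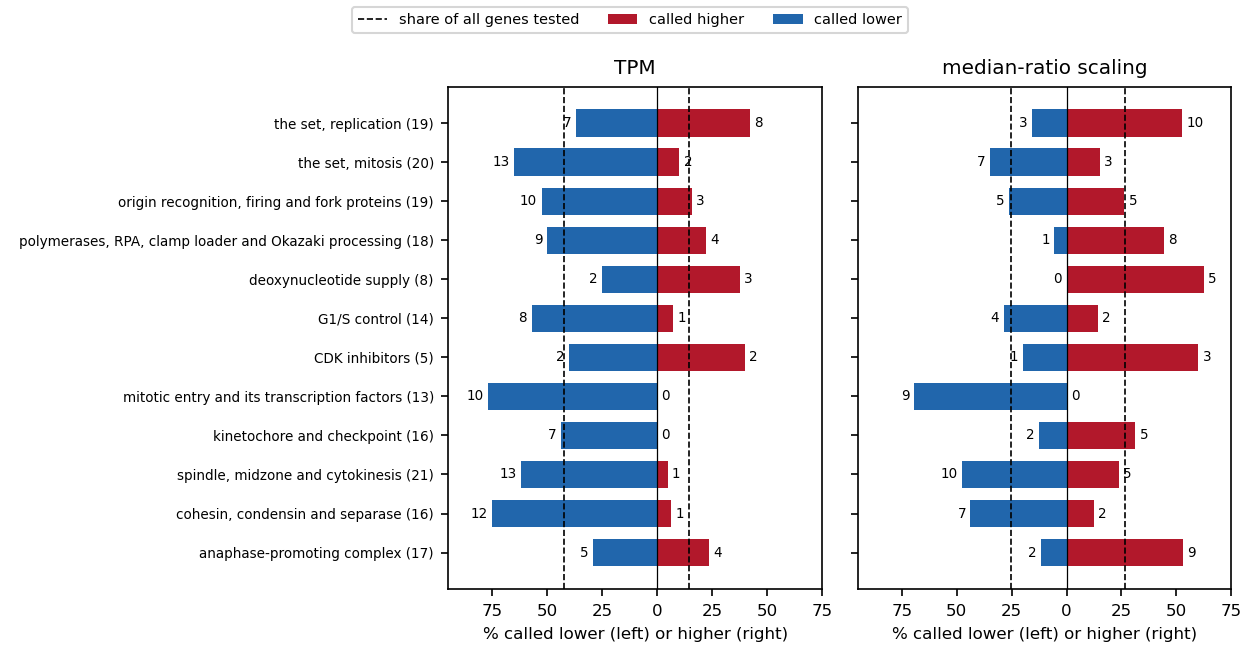
Share of tested genes called lower (blue, to the left) or higher (red, to the right) in the knockout, in TPM and under median-ratio scaling, for both sides of the set and for 10 further lists; bar labels are gene counts, numbers in brackets are genes tested and dashed lines are the shares of all tested genes. The list of mitotic entry and its transcription factors passes the dashed line for lower genes in both panels and has 0 higher, whereas the replication side passes that for higher genes in both.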

How the data were processed

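The authors deposited TPM per gene, 1 table per cell line. The submitters' processing notes name mm10 and GRCh38.p7 as builds and, as tools, TopHat2 2.1.1, Subread 1.6.4, featureCounts and CASAVA 1.8.2. Settings and the use of strand: not given in the sources used here. Only the 6 EMT6 libraries were used. The knockout columns were assigned by elimination, since the other 3 are named as wild type.

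GENCODE M21 on GRCm38 gave gene names, exon lengths and positions (54097 of 54331 identifiers matched), and RefSeq gave promoters. Genes with at least 0.5 TPM in at least 3 of 6 libraries were tested on log2(TPM + 1) by limma 3.58.1 with its mean-variance trend (R 4.3.3). Adjusted p is Benjamini-Hochberg over the genes tested in each setting, and calls are at 0.05. These were 13499 genes in TPM and under median-ratio scaling, and 13487, those with an exon length, after length detrending. Fold changes are knockout minus wild type on that scale, which understates changes of low genes. The script was tested on simulated data. Since the unit is TPM, no count test was run.

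The genes and the further lists were chosen with earlier results of these data known. Values per library are given for the most significant called gene per role and direction, for genes called against the majority of their side and for D-type cyclins. Up to 2 genes per direction are named from each further list. A few genes picked this way are not reported here. Other genes and all ratios between genes were singled out after their values were seen. Alternatives were median-ratio scaling, exon length detrending by lowess, no variance trend, no filter, a filter of 1 TPM, a pseudocount of 0.1, a replicate block, each library left out, a 2-fold minimum, and, chosen after seeing the data, a call in all 3 scalings.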

Additional observations from a re-analysis of the deposited data

How the results depend on the processing

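Over all genes, calls went from 1954 higher and 5705 lower to 3584 and 3426 under median-ratio scaling, 3124 and 3589 after length detrending, 202 and 621 past 2-fold, and 1650 and 2636 called in all 3 scalings. Replication genes called higher (8) numbered 5 without a variance trend, 5 with a replicate block, 0 past 2-fold and 4 to 7 with each library left out. Those called lower (7) numbered 3 under median-ratio scaling, 2 after length detrending, 4 with a replicate block, 1 past 2-fold, 2 in all 3 scalings and 4 to 7 with each library left out. Mitotic genes called higher (2) numbered 4 after length detrending and 0 past 2-fold. Those called lower (13) numbered 7 under either rescaling, 1 past 2-fold, 6 in all 3 scalings and 13 to 14 with each library left out. The replication median (0.11) was 0.35 under median-ratio scaling, 0.15 after length detrending and 0.08 to 0.13 with each library left out. The mitotic median (-0.36) was -0.13, -0.12 and -0.37 to -0.32. Their difference (0.47) was 0.27 after length detrending and 0.42 to 0.50 with each library left out. Signs turned under median-ratio scaling for Mcm7 (0.0651), Gins1 (0.0993), Fen1 (0.0818), Cdk1 (0.0738), Aurka (0.13), Kif20a (0.10), Cenpe (0.0767), Cenpf (0.15) and Birc5 (0.23). They turned after length detrending for Mcm2 (0.10), Mcm7 (0.0699), Cdk1 (0.11), Kif20a (0.10), Cenpe (0.23), Cenpf (0.40), Top2a (0.00754), Birc5 (0.16) and Prim2 (0.0702). With a library left out, they turned for Ccne1 (-0.073 to 0.054 over the 6 omissions, -0.073 and -0.0705 being the negative values) and Birc5 (-0.0205 to 0.012). The cause was not tested. Replicate numbers gave correlations of 0.0647, -0.0175 and 0.0728 between the deviations of same-numbered libraries, so the numbers were not taken to pair them. TPM keeps no depth, so no counting error can be given, and 3 libraries a group limit all small differences. The planned fits of MDA-MB-231 and with DESeq2 were not run.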
